A study of Mus musculus with 8 samples.

Results

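The clustered protocadherins are cell-surface adhesion proteins encoded by 3 neighbouring gene arrays, alpha, beta and gamma. They were picked out of the deposited table by symbol, as every gene named Pcdha, Pcdhb, Pcdhga, Pcdhgb, Pcdhac or Pcdhgc followed by a number. This gave 58 of 22553 genes: 14 alpha, 22 beta and 22 gamma entries. The alpha entries include 2 with the same symbol, Pcdha11 (ENSMUSG00000007440 and ENSMUSG00000102206), and the C-type genes Pcdhac1 and Pcdhac2. The gamma entries are 12 of subfamily A, 7 of subfamily B and the C-type genes Pcdhgc3, Pcdhgc4 and Pcdhgc5. In the GRCm38.p6 annotation all their symbols lie on chromosome 18, with alpha from 36930285 to 37188897, beta from 37264998 to 37521419 and gamma from 37661775 to 37841873.

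Ribosome footprints and input RNA had been sequenced from cells sorted by green fluorescence out of the main olfactory epithelium of mice of unstated age. The Ngn1-GFP KO group came from Mex3a flox/flox mice carrying a Cre driver and the Ngn1-GFP transgene, and its cells are described as neuronal progenitors and immature olfactory sensory neurons. The Ngn1-GFP control group carried the same transgene on Mex3a flox/flox or flox/+ without Cre. The OMP-GFP KO group came from Mex3a flox/flox mice with the same Cre driver, sorted for OMP-GFP, which marks mature olfactory sensory neurons. Its reporter is described as OMP-ires-GFP and its genotype entry reads OMP-ires-Cre. The OMP-GFP control group carried OMP-ires-GFP on the floxed background without Cre. The controls lack Cre altogether. The labels list 2 footprint libraries per group, while the table holds 1 value per gene, group and assay. Each value thus stands for a whole group as deposited, and no difference reported here has a replicate check.

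Each alpha and gamma gene supplies its own large first exon, which encodes the extracellular cadherin repeats and the membrane span, and this exon is spliced to constant exons that all genes of the array share and that encode the common end of the protein. Beta genes consist of a single coding exon and have no constant exons. Neurons switch on a small, largely random set of these promoters through CTCF and cohesin, while C-type genes are expressed more uniformly, and matching sets on neighbouring branches mediate recognition of self. In olfactory sensory neurons the arrays are known for the sorting and spacing of axons in the olfactory bulb.

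Footprint totals were 3031489 in Ngn1-GFP KO, 4456989 in Ngn1-GFP control, 4100841 in OMP-GFP KO and 3576406 in OMP-GFP control. RNA totals in the same order were 27786809, 89327877, 26946592 and 31855259. Mex3a, the deleted gene, had 28 footprints in Ngn1-GFP KO against 437 in control and 5 in OMP-GFP KO against 16 in control. TMM-scaled footprint sums of 10 mature olfactory neuron markers ran from 12762 to 27794 scaled CPM and were higher in both OMP-GFP columns. The 10 precursor markers summed to 304 and 270 in OMP-GFP KO and control against 1963 and 1615 in Ngn1-GFP KO and control. The 10 immature olfactory neuron markers differed less, at 8871 and 8590 in OMP-GFP KO and control against 10980 and 9059 in Ngn1-GFP KO and control. In OMP-GFP footprints 3 of these 10 were higher and 7 lower in controls, and 2 higher and 8 lower in KO. Sustentacular cell markers, which belong to the supporting cells of the epithelium, summed to 676 in Ngn1-GFP KO against 5136 in control, and to 607 in OMP-GFP KO against 162 in control. Nasal gland markers summed to 1076, 538, 665 and 104 in the 4 groups in the order above. Each list had 10 genes in the table, and of the nasal gland markers Obp1b was at 0 footprints in Ngn1-GFP KO and both OMP-GFP columns. In RNA of Ngn1-GFP control 529 of the 22553 genes in the table exceeded all other groups by 8-fold or more. In the other columns of footprints and RNA 1 to 130 genes stood apart in this way. None of the 58 protocadherins was among the genes of any column. Since so few of all genes stood apart, this does not tell the protocadherins from other genes. In a sorted population, fewer cells expressing a protocadherin and less RNA per cell cannot be told apart, and the part of the other cell types in the differences reported here was not tested.

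Within the alpha array, and within the gamma array, most genes had similar counts, with the C-type genes Pcdhac2 and Pcdhgc3 standing above the rest in RNA. Alpha footprints ran from 261 to 400 in Ngn1-GFP KO, from 348 to 629 in Ngn1-GFP control, from 470 to 681 in OMP-GFP KO and from 301 to 503 in OMP-GFP control. The highest alpha count was thus 1.45 to 1.81 times the lowest in footprints, and 1.54 to 1.85 times in RNA, where it was Pcdhac2 in each group. Gamma footprints ran from 322 to 496, from 316 to 726, from 384 to 568 and from 253 to 421 in the same 4 groups. The highest gamma count was 1.48 to 2.30 times the lowest in footprints and 1.63 to 2.56 times in RNA, where it was Pcdhgc3 in each group. The beta genes had no such floor, and their footprints spanned 8 to 2891, 6 to 3193, 5 to 5522 and 10 to 3909.

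The alpha gene with the lowest count was Pcdha8 in all 8 columns, footprints and RNA alike, and the gamma gene with the lowest count was Pcdhgc5 in all 8. Pcdha8 held 2706 RNA reads in Ngn1-GFP KO, 7154 in Ngn1-GFP control, 2698 in OMP-GFP KO and 3422 in OMP-GFP control, between 82.3% and 85.9% of the alpha median. Pcdhgc5 held 1678, 4194, 1309 and 1416 RNA reads in that order, between 83.7% and 90% of the gamma median. RefSeq gene ends of the alpha symbols fall within 1240 bases of each other and those of gamma within 1384 bases, whereas beta gene ends spread over 253965 bases. Coding lengths in the table were 2805 to 3021 bases for alpha, 2739 to 2835 for gamma and 2319 to 2490 for beta. The assignment of reads in the shared exons is not stated in the labels. The alpha and gamma entries are therefore not treated as separate observations: the count of the lowest gene is read as an upper limit on what every gene of that array shares, and the reads above it as a minimum for the gene's own exon.

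**Figure D1:**
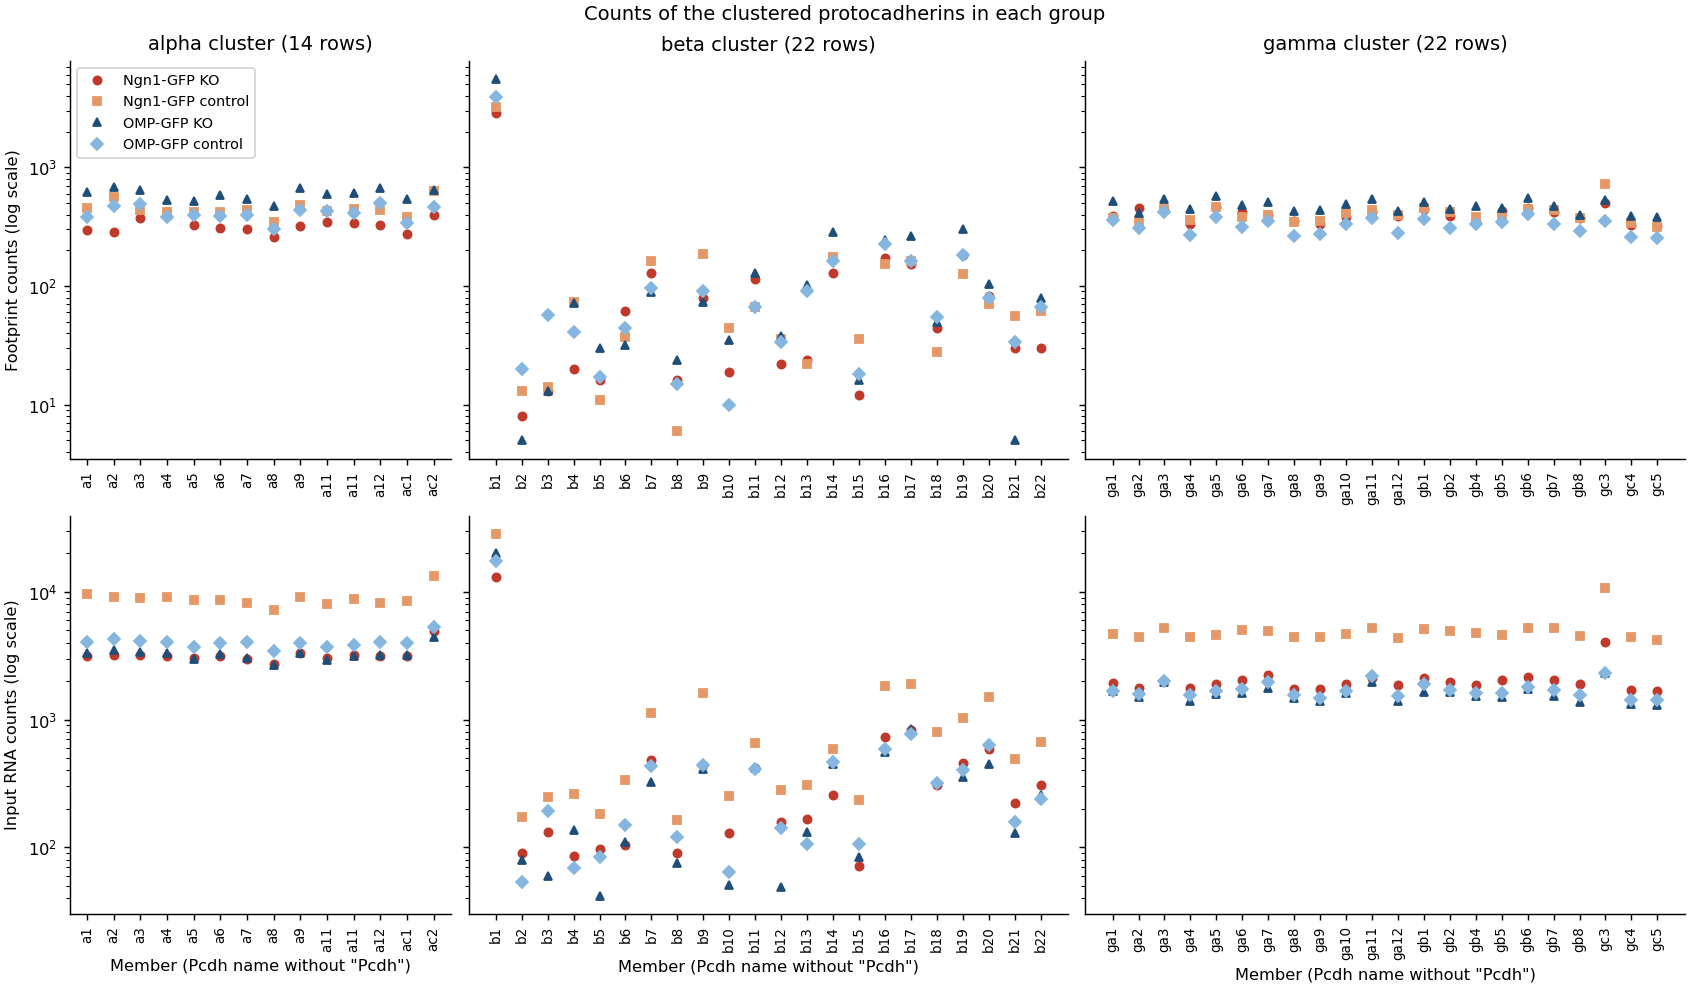
Counts of each clustered protocadherin (x axis, in order of number) as footprints (upper row) and input RNA (lower row) on a log axis, with 1 point per group. Most alpha and gamma genes lie close to a flat line in each group, with Pcdhac2 and Pcdhgc3 above it in RNA, while beta genes range from 5 footprints to the 5522 of Pcdhb1.

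Pcdhb1, the first gene of the beta array, was far above every other beta gene. It had 2891 footprints in Ngn1-GFP KO, 3193 in Ngn1-GFP control, 5522 in OMP-GFP KO and 3909 in OMP-GFP control, which is 68.1%, 67.5%, 73.5% and 71.4% of all beta footprints. Its promoter lacks the CTCF-bound element common to most genes of the arrays. Per length and depth, it stood at 388, 292, 548 and 445 footprint RPKM, where the next-highest beta gene reached 25 (Pcdhb19), 16.8 (Pcdhb9), 30.7 (Pcdhb19) and 26.3 (Pcdhb16). Among all genes of the table it ranked 290, 458, 181 and 254 by RPKM. Its RNA was 278, 164, 430 and 323 TPM, which is 68.0%, 65.8%, 79.1% and 74.7% of beta RNA reads.

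Averaged over the 4 groups, levels per length of the alpha and gamma genes lay between those of Pcdhb1 and the other beta genes, with the shared reads included. In OMP-GFP control alone Pcdhb16 (26.3 RPKM, rank 4642 of all genes) was above Pcdhgc4 (25.7, rank 4725) and Pcdhgc5 (rank 4832). By mean RPKM over the 4 groups the leading alpha genes were Pcdhac2 (46.2), Pcdha3 (45.5) and Pcdha12 (44.7). Those of gamma were Pcdhgc3 (49.5), Pcdhga5 (44.9) and Pcdhgb6 (44.6), and those of beta Pcdhb1 (418), Pcdhb16 (22.2) and Pcdhb19 (22.1). The lowest beta gene was Pcdhb2, at 1.29 RPKM. The order Pcdhb16, Pcdhb19, Pcdhb14 (20.5) and Pcdhb17 (20.5) has gaps smaller than the spread of each gene over the groups. Across the 22 beta genes, footprints followed RNA with r of 0.93, 0.91, 0.86 and 0.92 on the log2 scale in the 4 groups (rho 0.89, 0.83, 0.84 and 0.84). Without Pcdhb1 the 21 other genes gave r of 0.87, 0.82, 0.74 and 0.83. These correlations are across genes within a column, which are not independent replicates and share a library.

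The deletion of Mex3a was first examined in Ngn1-GFP cells, as log2 ratios of KO over control after TMM scaling with 95% counting intervals in brackets. These intervals cover counting error only, and PCR copies without molecular identifiers are not independent molecules. Pcdhb1, the sum of the other beta genes and the lowest gamma gene were higher in KO in both assays, by less than 2-fold, and the alpha interval in footprints included no difference. Pcdhb1 was higher by 0.48 [0.41, 0.55] in footprints and by 0.53 [0.50, 0.56] in RNA. The other 21 beta genes together had 1356 footprints in KO and 1539 in control, a ratio of 0.44 [0.33, 0.55], and 6186 RNA reads in KO against 14672 in control, a ratio of 0.38 [0.34, 0.43]. The lowest gamma gene gave 0.65 [0.42, 0.88] in footprints and 0.31 [0.23, 0.39] in RNA. The lowest alpha gene gave 0.21 [-0.03, 0.44] and 0.23 [0.16, 0.29]. Median footprint ratios were 0.18 over the 14 alpha, 0.50 over the 22 beta and 0.61 over the 22 gamma entries, beside -0.003 over all genes measured. Median RNA ratios were 0.18, 0.47 and 0.32, beside 0.02.

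Single beta genes scattered widely around those sums. At least 2-fold apart with an interval that excludes no difference, 5 of 58 protocadherins (8.62%) were higher and 1 (1.72%) lower in footprints, against 6.48% and 10.8% of the 12554 genes measured. These were all beta genes, which makes 22.7% of the 22 beta genes higher and 4.55% lower. Pcdhb11 had 115 footprints in KO against 66 in control (1.42 [0.97, 1.88]), and its RNA of 417 against 661 reads gave 0.96 [0.78, 1.14]. Pcdhb19 had 182 against 126 (1.15 [0.82, 1.49]), with RNA at 0.44 [0.28, 0.60]. Thus both genes were higher in KO in either assay.

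Pcdhb6 had 61 footprints in KO against 37 in control (1.34 [0.73, 1.97]) with RNA at -0.06 [-0.39, 0.26]. Pcdhb18 had 44 against 28 (1.27 [0.56, 2.01]), and Pcdhb8 16 against 6 (2.04 [0.61, 3.68]), the widest interval of the 5. Pcdhb4 was the lower one, with 20 footprints in KO against 73 in control (-1.25 [-2.04, -0.52]) and RNA at 0.03 [-0.34, 0.39]. Pcdhb9, with 80 against 186, was lower in both assays, at -0.59 [-0.99, -0.21] in footprints and -0.23 [-0.38, -0.07] in RNA. No protocadherin was 2-fold apart in RNA, where 4.49% of 16231 genes were at least 2-fold higher and 11.3% lower. Of the alpha genes, Pcdha2 had the lowest footprint ratio, with 286 in KO against 558 in control (-0.34 [-0.55, -0.13]), and of the gamma genes Pcdhga2 had the highest, with 451 against 348 (1.00 [0.79, 1.20]).

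In OMP-GFP cells the same comparison gave a smaller shift of the sum of the other beta genes, by -0.21 [-0.36, -0.07] in footprints (OMP-GFP minus Ngn1-GFP). Pcdhb1 was higher in KO by 0.38 [0.32, 0.44] in footprints and by 0.46 [0.43, 0.49] in RNA. The other 21 beta genes had 1989 footprints in KO and 1566 in control (0.22 [0.13, 0.32]), with RNA at 0.10 [0.05, 0.15]. The lowest gamma gene gave 0.48 [0.25, 0.72] in footprints and 0.15 [0.04, 0.26] in RNA. The lowest alpha gene gave 0.52 [0.31, 0.74] in footprints against -0.08 [-0.16, -0.01] in RNA. With shared reads counted once and each gene's reads above them added, alpha RNA gave -0.03 in Ngn1-GFP and 0.09 in OMP-GFP cells and alpha footprints 0.02 and 0.11, so the direction in RNA and the size in footprints depend on the reads taken. All 14 alpha and all 22 gamma entries had positive footprint ratios, and since each array shares reads these are not separate observations. Median footprint ratios were 0.38 over alpha, 0.10 over beta and 0.43 over gamma entries, beside 0.004 over all genes measured, and median RNA ratios were -0.04, 0.12 and 0.16, beside -0.002.

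Among the 58, footprints of 1 (1.72%) were at least 2-fold higher and of 3 (5.17%) at least 2-fold lower in OMP-GFP KO, against 7.12% and 8.55% of 11160 genes. These were all beta genes, which makes 4.55% and 13.6% of the 22. The higher one was Pcdhb10, with 35 footprints in KO against 10 in control (1.69 [0.64, 2.87]) and RNA at -0.07 [-0.63, 0.49]. Pcdhb3 was lower in both assays, with 13 footprints in KO against 57 in control (-2.25 [-3.25, -1.37]) and 60 RNA reads against 193 (-1.43 [-1.87, -1.0]). Pcdhb21 had 5 footprints in KO against 34 in control (-2.89 [-4.60, -1.52]), while its RNA was 129 against 158 reads (-0.03 [-0.38, 0.31]). Pcdhb2 had 5 against 20 footprints (-2.12 [-3.89, -0.66]), while its RNA ran the other way at 0.81 [0.29, 1.34]. All 3 rest on few footprints.

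In RNA of OMP-GFP cells, 1 protocadherin was at least 2-fold higher and 2 were lower, against 4.4% and 3.89% of 14351 genes. Pcdhb4 was higher, with 137 reads in KO against 69 in control (1.25 [0.82, 1.69]), and its footprints of 72 against 41 gave 0.69 [0.12, 1.28]. Pcdhb12 was lower, with 49 reads against 143 (-1.29 [-1.78, -0.81]), while its 38 against 34 footprints gave 0.04 [-0.67, 0.75]. Pcdhb3 was the other lower one. By the interval bound nearest to 0, Pcdhb11 and Pcdhb14 came next after Pcdhb10 in footprints, at 0.85 [0.41, 1.30] and 0.68 [0.40, 0.97].

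**Figure D2:**
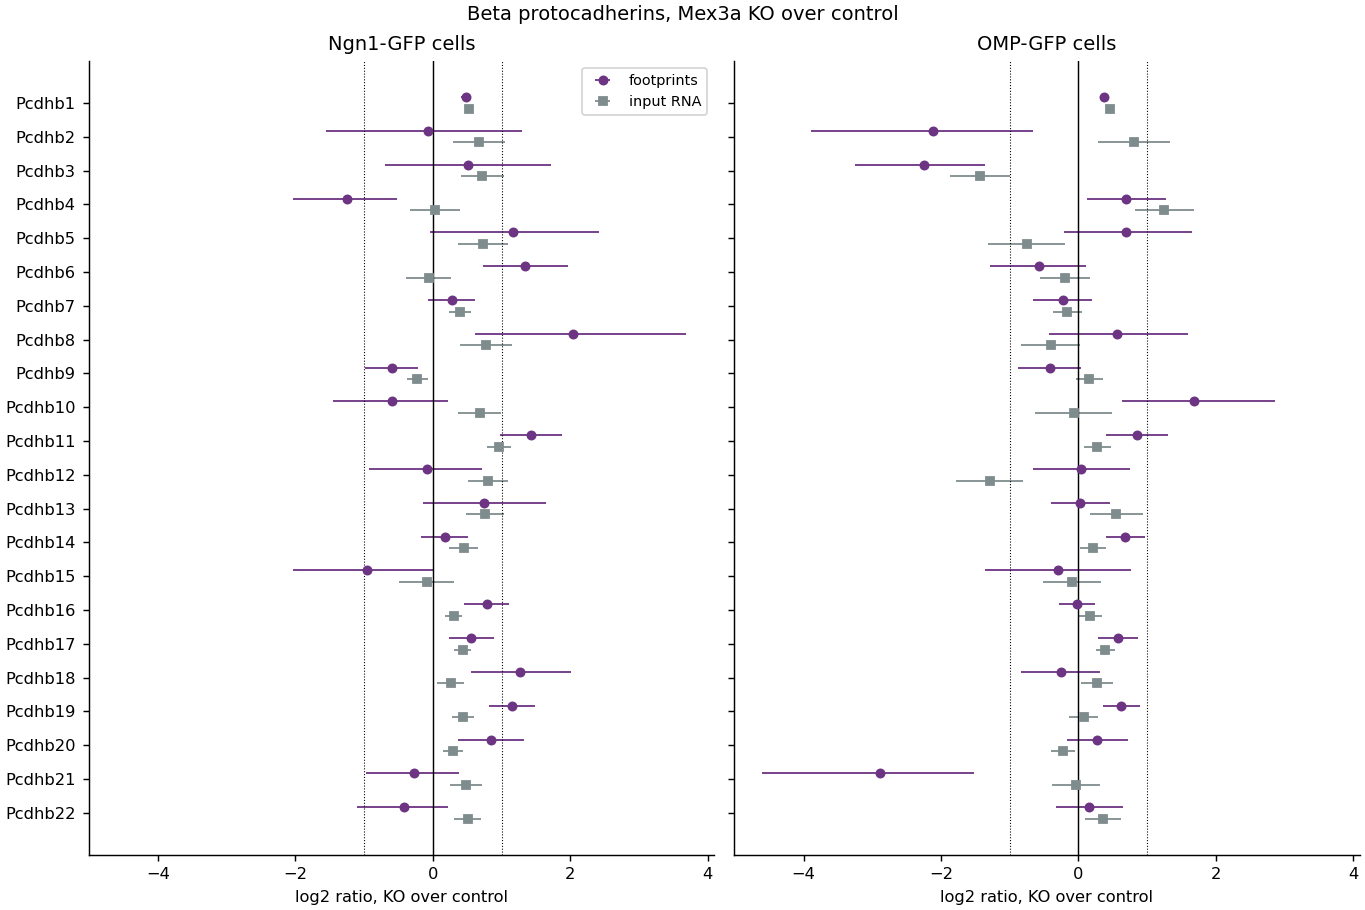
Log2 ratio of Mex3a KO over control for each of the 22 beta genes in Ngn1-GFP cells (left) and OMP-GFP cells (right), with 95% counting intervals, dotted lines at 2-fold, circles for footprints and squares for input RNA. Pcdhb1 sits between 0.38 and 0.53 in every case with a narrow interval, while genes with few footprints spread from -2.89 to 2.04.

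Side by side over both populations, which share no column, the beta genes Pcdhb1, Pcdhb11, Pcdhb17 and Pcdhb19 had positive footprint ratios with intervals that exclude no difference in each. Taken singly, 9 of the 22 beta genes had such an interval in Ngn1-GFP and 7 in OMP-GFP cells, against 25% and 25.7% of all genes. Of the entries that share reads, 21 and 22 of 22 gamma and 6 and 14 of 14 alpha entries had one. The share of all genes with such an interval in both populations was not computed. Whether the 4 beta genes named are more than 9 and 7 of 22 would share was thus not tested. Pcdhb17 gave 0.56 [0.23, 0.89] in Ngn1-GFP cells and 0.58 [0.29, 0.87] in OMP-GFP cells. Of the 21 beta genes other than Pcdhb1, 8 were above 0 in both populations, 4 below 0 in both and 9 opposite, so that 57.1% had the same sign against 53.9% of 10845 genes. In RNA the same share was 57.1% against 54.5%. The OMP-GFP minus Ngn1-GFP difference of the footprint ratios was at least 2-fold upward for 2 of 58 and downward for 5, against 11.5% and 10.8% of the same genes. Pcdhb10 (2.28 [1.00, 3.55]) and Pcdhb4 (1.94 [1.03, 2.84]) were the upward ones, and Pcdhb3 (-2.77 [-4.16, -1.37]), Pcdhb21 (-2.61 [-4.11, -1.11]) and Pcdhb6 (-1.92 [-2.81, -1.04]) led the downward ones. The spread of the 21 footprint ratios was 0.87 (SD over genes) in Ngn1-GFP and 1.11 in OMP-GFP cells, where counting alone would give 0.42 and 0.41. Over all genes measured the SD was 0.96 and 0.89, where counting alone would give 0.37 and 0.35.

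Of the beta genes with more footprints, some pointed the same way in both populations and others did not. Pcdhb17 had 154 footprints in Ngn1-GFP KO against 161 in control and 263 in OMP-GFP KO against 162 in control, with RNA ratios of 0.43 [0.31, 0.55] and 0.39 [0.25, 0.54] in the 2 populations. It was thus higher in KO in either assay and population. Pcdhb16 had 171 against 153 and 243 against 227 footprints, with ratios of 0.78 [0.46, 1.11] in Ngn1-GFP and -0.02 [-0.29, 0.25] in OMP-GFP cells. Pcdhb14 had 128 against 175 and 283 against 162, with ratios of 0.17 [-0.17, 0.51] and 0.68 [0.40, 0.97], the other way round. Pcdhb20 (83 against 71 and 104 against 79) and Pcdhb7 (128 against 163 and 89 against 96) gave 0.85 [0.37, 1.33] and 0.27 [-0.07, 0.62] in Ngn1-GFP cells. In OMP-GFP cells the intervals of Pcdhb20 (0.28 [-0.16, 0.72]) and Pcdhb7 (-0.23 [-0.66, 0.20]) included no difference. Pcdhb12 and Pcdhb5 had RNA higher in Ngn1-GFP KO, at 0.81 [0.52, 1.09] and 0.73 [0.36, 1.09], and lower in OMP-GFP KO, at -1.29 [-1.78, -0.81] and -0.74 [-1.31, -0.19]. Their footprint intervals included no difference in both populations.

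Within the alpha and gamma arrays, ratios of single entries include the reads that the array shares. Alpha footprint ratios of KO over control ran from -0.34 (Pcdha2) to 0.53 (Pcdha4) in Ngn1-GFP cells and from 0.27 (Pcdha3) to 0.58 (Pcdha1) in OMP-GFP cells. Gamma footprint ratios ran from 0.07 (Pcdhgc3) to 1.00 (Pcdhga2) and from 0.23 (Pcdhga3) to 0.59 (Pcdhga4). In RNA, gamma ran from 0.21 (Pcdhgc3) to 0.49 (Pcdhga7) in Ngn1-GFP cells and from 0.03 (Pcdhgb1) to 0.26 (Pcdhga1) in OMP-GFP cells.

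The sorted populations were compared next, as OMP-GFP over Ngn1-GFP within each genotype. These comparisons reuse the columns above and are not independent of them. Pcdhb1 was higher in OMP-GFP cells by 0.72 [0.66, 0.79] in KO and by 0.82 [0.76, 0.89] in controls in footprints, with RNA at 0.77 [0.74, 0.81] and 0.85 [0.82, 0.87]. The other 21 beta genes gave 0.34 [0.24, 0.44] in KO and 0.56 [0.45, 0.66] in controls in footprints, against RNA ratios of -0.05 [-0.11, 0.0002] and 0.23 [0.19, 0.27]. The lowest alpha gene was higher in OMP-GFP cells in footprints, by 0.64 [0.42, 0.86] in KO and 0.32 [0.10, 0.55] in controls. The lowest gamma gene gave 0.04 [-0.17, 0.26] in KO and 0.21 [-0.03, 0.45] in controls. In RNA the lowest alpha gene gave 0.16 [0.08, 0.23] in KO and 0.47 [0.41, 0.53] in controls, and the lowest gamma gene -0.20 [-0.30, -0.09] and -0.03 [-0.12, 0.05]. Median footprint ratios in KO were 0.63 over alpha, 0.37 over beta and 0.07 over gamma entries, beside -0.008 over all genes, and in controls 0.40, 0.65 and 0.23, beside -0.02.

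In controls, footprints of 7 protocadherins (12.1%) were at least 2-fold higher in OMP-GFP cells and of 1 (1.72%) lower, against 6.11% and 17.4% of 12387 genes. These were all beta genes, which makes 31.8% and 4.55% of the 22. Pcdhb13 had 91 footprints in OMP-GFP control against 22 in Ngn1-GFP control (2.58 [1.90, 3.32]), while its RNA ratio was 0.02 [-0.31, 0.34]. Pcdhb3 had 57 against 14 (2.56 [1.70, 3.52]) with RNA at 1.17 [0.89, 1.45]. The others were Pcdhb8 (1.85), Pcdhb18 (1.51), Pcdhb2 (1.15), Pcdhb16 (1.10) and Pcdhb19 (1.05). Pcdhb10 was the lower one, with 10 footprints in OMP-GFP control against 44 in Ngn1-GFP control (-1.61 [-2.76, -0.59]). In RNA 3 (5.17%) were at least 2-fold higher, Pcdhb14 (1.21 [1.03, 1.38]), Pcdhb3 and Pcdhb8 (1.08 [0.73, 1.43]), and none was lower, against 3.49% and 23.3% of 16150 genes.

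In KO, footprints of 4 of 57 measured protocadherins (7.02%) were at least 2-fold higher in OMP-GFP cells and of 2 (3.51%) lower, against 11.3% and 18.4% of 11766 genes. Of the 21 beta genes measured, 14.3% were higher and 9.52% lower. Pcdhb2, with 13 footprints in the pair, was below the minimum of 20. Pcdhb13 was again higher, with 101 footprints in OMP-GFP KO against 24 in Ngn1-GFP KO (1.86 [1.21, 2.57]) and RNA at -0.19 [-0.53, 0.15]. Pcdhb4 (1.64 [0.91, 2.43]), Pcdhb22 (1.20 [0.58, 1.86]) and Pcdha2 (1.04 [0.84, 1.25]) were the other higher ones. Pcdhb21 (-2.80 [-4.52, -1.42]) and Pcdhb6 (-1.14 [-1.81, -0.50]) were lower. In RNA none was at least 2-fold higher and 3 (5.17%) were lower, namely Pcdhb12 (-1.54), Pcdhb10 (-1.19) and Pcdhb5 (-1.06), against 4.77% and 16.4% of 15058 genes.

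**Figure D3:**
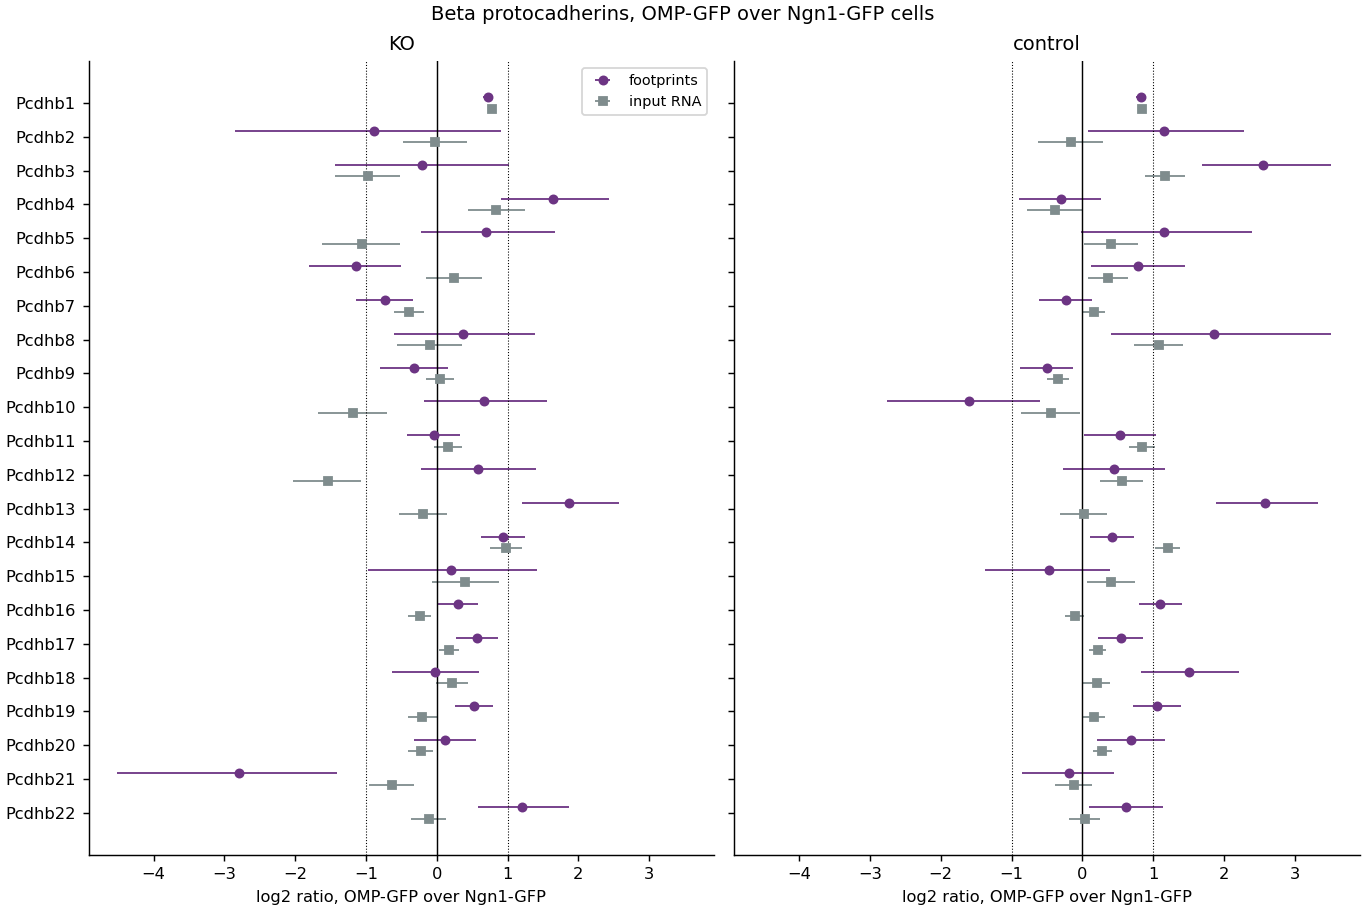
Log2 ratio of OMP-GFP over Ngn1-GFP cells for each of the 22 beta genes in KO (left) and control (right), drawn as circles for footprints and squares for input RNA with 95% counting intervals and dotted lines at 2-fold. Pcdhb13 lies above 2-fold in footprints and near 0 in RNA in both genotypes.

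Reads above the lowest gene of the array separated the C-type genes. Pcdhgc3, whose first exon is known to yield a broadly expressed isoform, had 2344 RNA reads above Pcdhgc5 in Ngn1-GFP KO, 6538 in Ngn1-GFP control, 998 in OMP-GFP KO and 896 in OMP-GFP control. These were 31.0%, 36.9%, 15.5% and 13.6% of all gamma reads above the lowest gene. Against Ngn1-GFP cells the OMP-GFP value was lower, with log2 ratios of -1.07 [-1.26, -0.88] in KO and -1.34 [-1.54, -1.14] in controls. In footprints the reads above the lowest gene were 174, 410, 147 and 102, with ratios of -0.45 [-1.20, 0.29] in KO and -1.48 [-2.19, -0.76] in controls. In Ngn1-GFP cells, Pcdhgc3 footprints above the lowest gene gave -0.61 [-1.13, -0.10] for KO over control, while the RNA gave 0.15 [0.04, 0.25]. The whole Pcdhgc3 footprint count gave 0.07 [-0.10, 0.24], so this direction depends on subtracting the floor. Whole-count RNA of Pcdhgc3 was lower in OMP-GFP cells as well, at -0.64 [-0.71, -0.57] in KO and -0.68 [-0.75, -0.62] in controls.

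Pcdhac2 had 2201, 6107, 1701 and 1863 RNA reads above Pcdha8 in the 4 groups in the usual order, and 139, 281, 168 and 163 footprints. Its RNA ratio of OMP-GFP over Ngn1-GFP was -0.21 [-0.39, -0.03] in KO and -0.18 [-0.34, -0.02] in controls. The whole Pcdhac2 RNA count gave 0.004 [-0.05, 0.06] in KO and 0.20 [0.16, 0.25] in controls, so its direction depends on subtracting the floor. Pcdhac1 had 464, 1249, 528 and 526 RNA reads above the lowest gene. Pcdhgc4 had 35, 198, 21 and 19, close to the floor that Pcdhgc5 sets, so the level of Pcdhgc4 and Pcdhgc5 cannot be told from the shared reads. For OMP-GFP over Ngn1-GFP, the summed reads of gamma A genes above the lowest gene gave 0.49 in KO and 0.81 in controls in RNA. In footprints they gave 0.19 and 0.51. Those of gamma B gave -0.21 in KO and 0.25 in controls in RNA, and -0.16 and 0.37 in footprints. For alpha genes 1 to 12 the same sums gave 0.41 in KO and 0.003 in controls in RNA, and 0.78 and 0.85 in footprints. These sums subtract the lowest gene once per gene and have no interval, so their directions are not established.

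**Figure D4:**
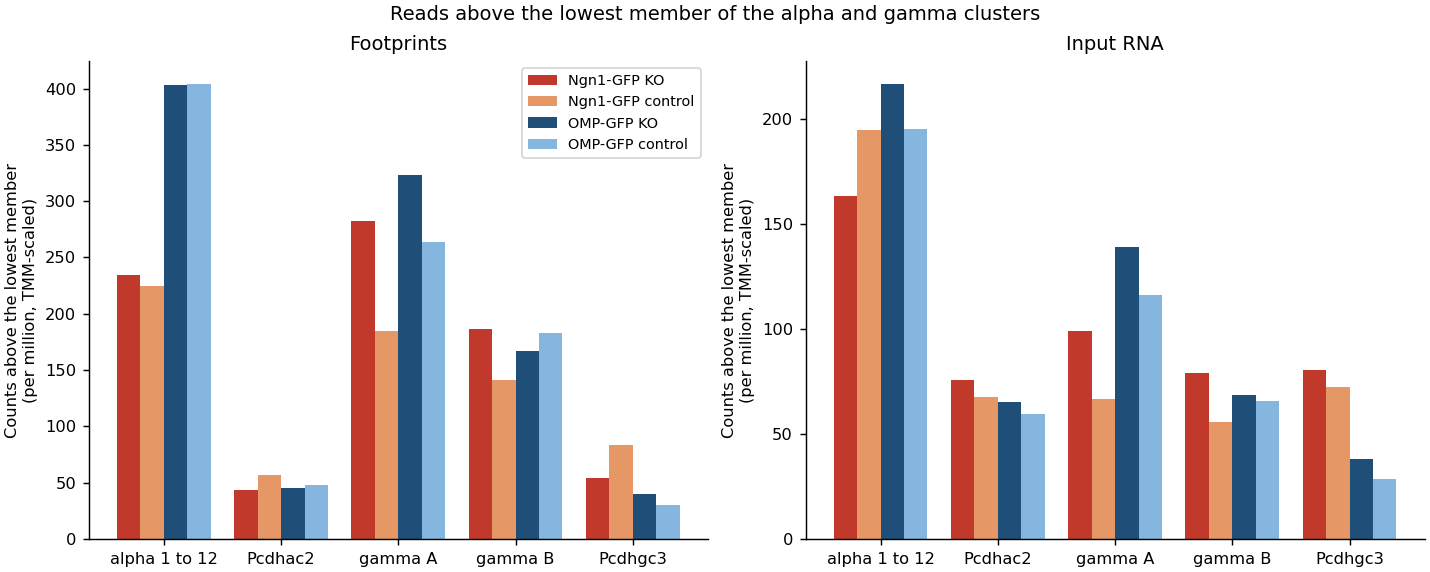
Reads above the lowest gene of the alpha or gamma array, as TMM-scaled CPM, as footprints (left) and input RNA (right), with a bar for each of the 4 groups. Pcdhgc3 RNA stands at 38.3 and 28.8 in OMP-GFP KO and control against 80.5 and 72.6 in Ngn1-GFP KO and control.

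Footprints per RNA read, the translational efficiency, had a lower median in alpha than in beta and gamma in every group. On the log2 scale of footprint share over RNA share, beta genes had medians of 0.88, 1.05, 1.15 and 1.23 in the 4 groups, gamma genes 0.87, 0.59, 1.08 and 0.78, and alpha genes -0.14, -0.15, 0.38 and -0.10. All genes measured had medians of 0.09, 0.13, 0.05 and 0.04. The beta median thus lay above 75.7% to 85.5% of genes and the gamma median above 65.8% to 81.1%, while the alpha median lay above 40.2% to 61.4%. Per 100 RNA reads, alpha had 9.93, 4.92, 18.5 and 10.2 footprints and gamma 20, 8.19, 30.0 and 18.7, figures that also carry the unequal depth of the columns. Between 16 and 18 of the 22 beta genes had the 20 counts needed in both assays. The others fell short in footprints, since the lowest beta RNA count was 42 reads, while no alpha or gamma entry was dropped. The minimum thus removes beta genes with few footprints per RNA read, such as Pcdhb2 in OMP-GFP KO with 5 footprints and 79 RNA reads. The beta medians therefore lie higher than they would with all 22 genes. All genes were held to the same minimum.

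**Figure D5:**
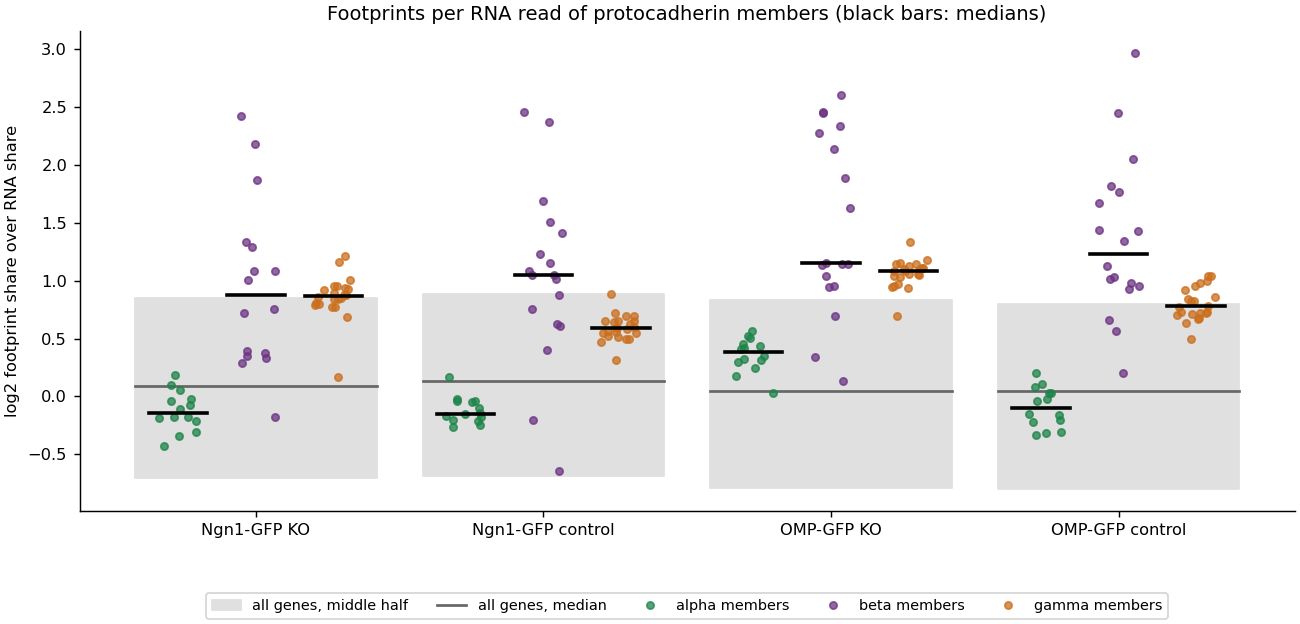
Log2 of footprint share over RNA share for each protocadherin with at least 20 counts in both assays, by group, with black bars at the medians, a grey line at the median of all genes and a grey band between their quartiles. Alpha and gamma ranges are apart in every group but Ngn1-GFP KO, where alpha reaches 0.19 and gamma starts at 0.17. Points of each of these arrays include its shared reads and are not separate observations.

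The footprints per RNA read of Pcdhb1 moved by at most 0.08 on the log2 scale in any comparison. Its KO over control ratio of efficiency was -0.05 [-0.13, 0.03] in Ngn1-GFP and -0.08 [-0.15, -0.01] in OMP-GFP cells, and OMP-GFP over Ngn1-GFP gave -0.05 [-0.12, 0.02] in KO and -0.02 [-0.09, 0.05] in controls. The lowest alpha gene had an efficiency ratio of -0.02 [-0.26, 0.23] for KO over control in Ngn1-GFP cells and of 0.61 [0.38, 0.83] in OMP-GFP cells. The lowest gamma gene gave 0.34 [0.10, 0.58] and 0.34 [0.08, 0.59]. When shared reads were counted once and each gene's reads above them added, alpha gave 0.05 and 0.02 and gamma 0.003 and -0.007, so the efficiency difference between KO and control depends on which reads of these arrays are taken, and its cause was not tested.

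Efficiency ratios of KO over control at least 2-fold apart were 2 higher and 2 lower in Ngn1-GFP cells, against 8.04% and 10.2% of 12530 genes, and 3 higher and 2 lower in OMP-GFP cells, against 7.12% and 9.08% of 11124 genes. All were beta genes. In Ngn1-GFP cells they included Pcdhb6 (1.41 [0.74, 2.08]), Pcdhb10 (-1.27 [-2.10, -0.44]) and Pcdhb4 (-1.28 [-2.07, -0.48]). In OMP-GFP cells Pcdhb10 (1.76 [0.61, 2.90]) and Pcdhb12 (1.33 [0.51, 2.14]) were higher and Pcdhb21 (-2.85 [-4.25, -1.46]) and Pcdhb2 (-2.93 [-4.43, -1.43]) lower. Pcdhb10 thus pointed in opposite directions in the 2 populations, with 19 footprints in Ngn1-GFP KO against 44 in control.

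Over all 58 genes the median efficiency ratio for KO over control was 0.18 in Ngn1-GFP and 0.31 in OMP-GFP cells, beside -0.06 and -0.005 over all genes measured. These medians include the 14 alpha and 22 gamma entries that share reads, and with the lowest gene of each array subtracted they turned sign, to -0.130 and -0.0799. The medians for OMP-GFP over Ngn1-GFP were 0.33 in KO and 0.16 in controls, beside -0.05 and -0.09. At least 2-fold apart in efficiency there were 5 higher and 2 lower in KO, against 9.78% and 13.2% of 11717 genes, and 5 higher and 1 lower in controls, against 5.98% and 8.56% of 12374 genes. Pcdhb13 had the highest ratio in controls (2.56 [1.82, 3.30]) and Pcdhb12 in KO (2.11 [1.23, 3.0]).

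Genes of the same pathway were read from 3 further lists. Of 24 genes known for choosing or silencing protocadherin promoters, 23 were measured in Ngn1-GFP footprints, 17 of them above 0 in KO where 49.7% of all genes were, none at least 2-fold higher and 1 lower (against 6.48% and 10.8% of all genes), Rest, the neuronal gene repressor (-1.30 [-2.54, -0.21]). The cohesin genes Stag2 (0.85 [0.71, 1.00]) and Nipbl, the cohesin loader (0.67 [0.52, 0.82]), led the higher side. In OMP-GFP RNA 6 of the 24 were above 0 in KO, where 49.7% of all genes were. There 1 was at least 2-fold higher and none lower, against 4.4% and 3.89% of all genes. This was Rest, with 84 RNA reads in OMP-GFP KO against 36 in control. Its Ngn1-GFP footprints ran the other way, with 9 in KO against 34 in control, and both ratios come from low counts. In OMP-GFP KO footprints no regulator was 2-fold apart, with Ctcf at 0.74 [0.59, 0.89] and Pds5a at 0.69 [0.51, 0.87] highest and Setdb1, a histone methyltransferase, at -0.73 [-1.0, -0.47] and Ehmt2 at -0.74 [-1.06, -0.43] lowest. Smchd1, a silencer of the arrays, was lower in OMP-GFP cells in both genotypes, at -1.42 [-1.57, -1.28] in KO and -1.05 [-1.19, -0.90] in controls in footprints.

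Of 24 genes for proteins that meet the cytoplasmic side of protocadherins, such as the WAVE complex, the kinases FAK and Pyk2 and gamma-secretase, 21 were measured in Ngn1-GFP footprints, with a median of 0.02 for KO over control, none at least 2-fold higher and 1 lower (against 6.48% and 10.8% of all genes), Axin1 (-1.05 [-1.47, -0.65]). In OMP-GFP cells their median was 0.12, with 2 higher and 1 lower (against 7.12% and 8.55% of all genes), and Fyn, a kinase of the Src family, was at 1.74 [1.13, 2.38], Axin1 at 1.07 [0.42, 1.75] and Prkca, a protein kinase C, at -1.46 [-2.51, -0.50]. For OMP-GFP over Ngn1-GFP their footprint medians were -0.40 in KO and -0.40 in controls, with 4 genes at least 2-fold lower in each and none higher, where 18.4% of all genes in KO and 17.4% in controls were lower. In RNA of Ngn1-GFP KO over control all 24 were measured, with a median of 0.12. None was at least 2-fold higher and 3 were lower, against 4.49% and 11.3% of all genes. They were Psenen (92 reads in KO against 2397 in control), Csnk2a1 (475 against 7063) and Pdcd10 (484 against 3009). Psenen had 0 footprints in every group. In OMP-GFP RNA none of the 24 was 2-fold apart for KO over control.

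The 12 non-clustered protocadherins, which are single genes outside the 3 arrays, gave medians of 0.29 for KO over control in Ngn1-GFP footprints (9 measured) and -0.05 in OMP-GFP footprints (8 measured). None was 2-fold apart in either. Pcdh9 (0.83 [0.54, 1.12]) and Pcdh8 (0.68 [0.53, 0.84]) were highest in Ngn1-GFP KO, and Pcdh10 was lower in OMP-GFP KO (-0.31 [-0.45, -0.17]). Pcdh8 and Pcdh10, both of the delta family, were higher in OMP-GFP cells. Their footprint ratios were 0.73 [0.60, 0.87] and 1.03 [0.85, 1.22] in KO and 1.39 [1.26, 1.53] and 1.22 [1.07, 1.38] in controls. In control footprints 3 of 10 measured were at least 2-fold higher and 2 lower, against 6.11% and 17.4% of all genes. In KO 1 of 9 was higher and 1 lower, against 11.3% and 18.4%. Pcdh18 was lower, with 3 footprints in OMP-GFP control against 40 in Ngn1-GFP control, and 1 against 25 in KO. Pcdh15 had 2 against 18 in controls. These lower genes had few footprints.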

How the data were processed

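Tools named without versions by the submitters' processing notes are FastQC, cutadapt and STAR, with build mm10, and the labels' protocols name a low-input stranded RNA kit. Per the file headers, the deposited table gives for each group footprint counts and RNA counts over coding sequences, the coding length in bases, footprint RPKM, RNA TPM and the authors' translational efficiency, a ratio. The labels state neither how 2 libraries became 1 column nor how reads in shared exons were counted. The deposited RPKM and TPM values were used for levels, and the counts for every ratio.

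TMM factors came from edgeR 4.0.16 (R 4.3.3). They were fitted on 13479 genes in footprints and 16388 in RNA, those passing filterByExpr (minimum count 10, minimum total 15). All 58 protocadherins passed both filters. A gene needed 20 counts summed over both columns for a ratio, and a count of 0 was set to 3 counts. Software was Python 3.11.15, scipy 1.17.1, pandas 2.3.3 and numpy 2.4.6. Intervals are exact conditional binomial 95% intervals, approximate for efficiency and for reads of Pcdhac2 and Pcdhgc3 above the lowest gene. Sums of such reads over several genes, and arrays with shared reads counted once, have no interval. No p-value was computed, since each group has 1 column per assay. The ratio code was tested on simulated counts. Plots were drawn with matplotlib 3.10.9.

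Named genes are the C-type genes, the 3 highest per length in each array, the 3 largest and smallest ratios of a comparison by the interval bound nearest 0, the others past 2-fold, and of each further list the 2 largest in either direction. The members, lists and this rule were chosen with earlier results of these data known. Counting shared reads once, the next-lowest gene in place of the lowest, and beta without Pcdhb1 were chosen after seeing the data.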

Additional observations from a re-analysis of the deposited data

Results flagged for a closer look

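Among the 58 clustered protocadherins, Pcdhb4 and Pcdha2 were the genes whose footprint ratios of KO over control had intervals on opposite sides of no difference in the 2 populations. For Pcdhb4 the ratio was 0.69 [0.12, 1.28] in OMP-GFP cells and -1.25 [-2.04, -0.52] in Ngn1-GFP cells, a difference of 1.94 on the log2 scale. For Pcdha2 it was 0.41 [0.23, 0.58] in OMP-GFP cells and -0.34 [-0.55, -0.13] in Ngn1-GFP cells, a difference of 0.748. Each group has 1 column, and neither difference was tested.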

How the results depend on the processing

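No paired analysis was possible because each group has 1 column per assay and no library values. Scaling by DESeq2 size factors, no minimum count, a minimum of 100 counts and the next-lowest gene in place of the lowest left the medians and array values within their spread, and leaving out the Ngn1-GFP control column moved the overall efficiency median to 0.858 against 0.790. Scaling by library size alone shifts all genes by -0.23 in KO and -0.21 in controls for footprints of OMP-GFP over Ngn1-GFP, and by -0.12 for RNA in KO.

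With library size alone, median footprint ratios were 0.307 for KO over control in OMP-GFP cells, and -0.0165 in KO and 0.154 in controls for OMP-GFP over Ngn1-GFP, where the KO value turned sign. Median RNA ratios were 0.360 for KO over control in Ngn1-GFP cells and -0.204 for OMP-GFP over Ngn1-GFP in KO, the efficiency ratio in controls became -0.0098, also a turned sign, and efficiency levels were 0.701 in Ngn1-GFP control and 0.942 in OMP-GFP KO. For OMP-GFP over Ngn1-GFP in KO, the lowest alpha gene gave 0.413 in footprints and 0.0400 in RNA, and the lowest gamma gene -0.182 and -0.314. Beta without Pcdhb1 gave 0.117 in KO and 0.343 in controls in footprints, and -0.17 and 0.185 in RNA, with 0.439 for RNA of Ngn1-GFP KO over control. Pcdhb1 gave 0.498 in KO and 0.609 in controls in footprints, and 0.657 and 0.801 in RNA, with 0.584 for RNA of Ngn1-GFP and 0.301 for footprints of OMP-GFP KO over control.

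With the lowest gene subtracted from each alpha and gamma gene, median ratios of KO over control in OMP-GFP cells were 0.157 in footprints, 0.184 in RNA and -0.0799 in efficiency, a turned sign. The Ngn1-GFP efficiency ratio was -0.130, also a turned sign, the footprint ratio of OMP-GFP over Ngn1-GFP in controls 0.614, the difference of KO effects -0.228, and efficiency levels 1.05, 1.05, 1.14 and 1.29. With shared reads counted once, alpha KO over control turned sign in RNA, at -0.0319 in Ngn1-GFP and 0.0895 in OMP-GFP cells, and gave 0.109 in OMP-GFP footprints. For OMP-GFP over Ngn1-GFP in controls alpha gave 0.619 in footprints and 0.101 in RNA, and gamma 0.0788 in RNA. Gamma KO over control in footprints was 0.387 in Ngn1-GFP and 0.201 in OMP-GFP cells. The cause of these differences was not tested. A threshold of 1.5-fold, a minimum of 100 counts, the subtracted floor and library size alone moved 11, 7, 13 and 4 of the 16 counts of genes past the threshold. Beta genes with few footprints have intervals several fold wide, and depth limits what their ratios show.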
